A study of Mus musculus with 8 samples.

Results

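The genes described here are 40 genes of fatty acid oxidation and ketone body metabolism, chosen by gene symbol. They are 40 of 55291 gene symbols in the expression tables. All 40 were present at 1 CPM or more (CPM is a gene's count scaled to a common library total) in at least 4 of the 8 libraries, as did 13401 genes in all. The libraries came from outer medullary collecting ducts (OMCD), the stretch of collecting duct that crosses the outer medulla of the kidney, dissected from wild-type C57BL/6J mice. For 3 days 4 mice had eaten a normal-salt diet (0.3% salt) and 4 a high-salt diet (3% salt), and each library was made from a pool of 100 to 120 dissected structures of a single mouse. No other treatment or allele is named for either group, and the sources used here name neither sex nor age. The comparison addresses which transcripts of this nephron segment differ in abundance after a short salt load.

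Fatty acids enter cells with the help of CD36, fatty acid transport proteins and fatty acid binding proteins, are activated to acyl-CoA, and cross into mitochondria by the carnitine shuttle. There the beta-oxidation spiral shortens them to acetyl-CoA and passes electrons through the electron transfer flavoprotein to the respiratory chain, while peroxisomes start on very long and branched chains. Ketone bodies made by the liver are turned back into acetyl-CoA by BDH1, OXCT1 and ACAT1. In the kidney, fatty acid oxidation is best known as the main fuel of the proximal tubule, and collecting duct cells are also known to use glucose.

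The libraries held about 64826400 to 94146300 estimated counts each, so that 1 count corresponded to 0.0106 to 0.0154 CPM. Principal cell markers summed to 22772 to 27804 CPM under normal salt and 31382 to 36426 CPM under high salt, and intercalated cell markers to 10628 to 11902 and 9024 to 11061 CPM. Both cell types of the collecting duct were therefore present in every library at high levels. Of the 12 principal cell markers, 7 had a higher and 5 a lower mean under high salt. Of the 14 intercalated cell markers, 4 had a higher and 10 a lower mean. Thick ascending limb markers, from the segment that runs beside the OMCD, summed to 1244 to 2963 CPM under normal salt and 726 to 3560 CPM under high salt. Proximal tubule markers summed to 19.0 to 147 and 23.8 to 236 CPM, with 7 of 20 genes under 1 CPM and 1 at 0 in every library. Adipocyte markers summed to 54.1 to 68.7 CPM under normal salt and 50.6 to 69.7 CPM under high salt. Of that list 9 of 10 genes were under 1 CPM and 2 at 0 in every library, so most of the sum came from 1 gene. Libraries are called here by diet and by the number in their column heading, so that the normal-salt libraries are 1, 2, 3 and 6 and the high-salt libraries 2, 3, 4 and 6. Within a diet the numbers identify libraries and have no order.

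None of the 40 genes passed the test between diets (limma on log2(CPM + 1), adjusted p under 0.05 after Benjamini-Hochberg adjustment over 13401 genes). Over all genes 11 passed, or 0.0821%, with higher levels under high salt for 4 (0.0298%) and lower levels for 7 (0.0522%). The unadjusted p was under 0.05 for 4 of the 40 genes, or 10%, against 1383 of all genes, or 10.3%. The thiolase Acaa2 was the 1 gene of these with a higher mean under high salt (5.95% of all genes), and the fatty acid transporter Slc27a1, the triglyceride lipase Pnpla2 and the lipid droplet coat protein Plin2 were the 3 with a lower mean (4.37% of all genes). The 4 libraries of one diet all lay above the 4 of the other for 2 of the 40 genes, or 5%, against 858 of all genes, or 6.40%. Those were Slc27a1 and Pnpla2, both lower under high salt (2.75% of all genes), and no gene of the 40 was higher without overlap (3.66% of all genes). These shares are close to the background. voom on the estimated counts also called 0 of the 40 genes, and the counts by unadjusted p were again 1 higher and 3 lower. In a fit that left out normal-salt 1 these counts became 3 higher, 4 lower and 5 genes without overlap, against 13.5% and 12.5% of all genes in that fit.

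The means of 19 genes were higher and those of 21 lower under high salt. The median log2 fold change (high over normal salt) was -0.02, against 0.01 over all genes tested, and single genes ranged from -0.62 to 0.44. The fold change was within 1.2-fold for 29 of the 40 genes, or 72.5%, against 80.0% of all genes. The 95% interval of the fold change lay inside 1.5-fold in either direction for 31 genes, or 77.5%, against 70.2% of all genes. For these 31 genes a change larger than 1.5-fold lies outside the interval. The interval excluded 0 for Slc27a1, Pnpla2, Plin2 and Acaa2, of the 40 genes, before any adjustment for the number of genes tested. In data simulated from these libraries the same test called 9.40% of genes changed 1.5-fold and 55.5% of genes changed 2-fold, with 13190 genes tested and 200 changed. The simulated spread of each gene was taken over all 8 libraries, from estimated counts not scaled for library total. It therefore included differences in total and between diets, and these rates may be too low for the data described here.

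**Figure D1:**
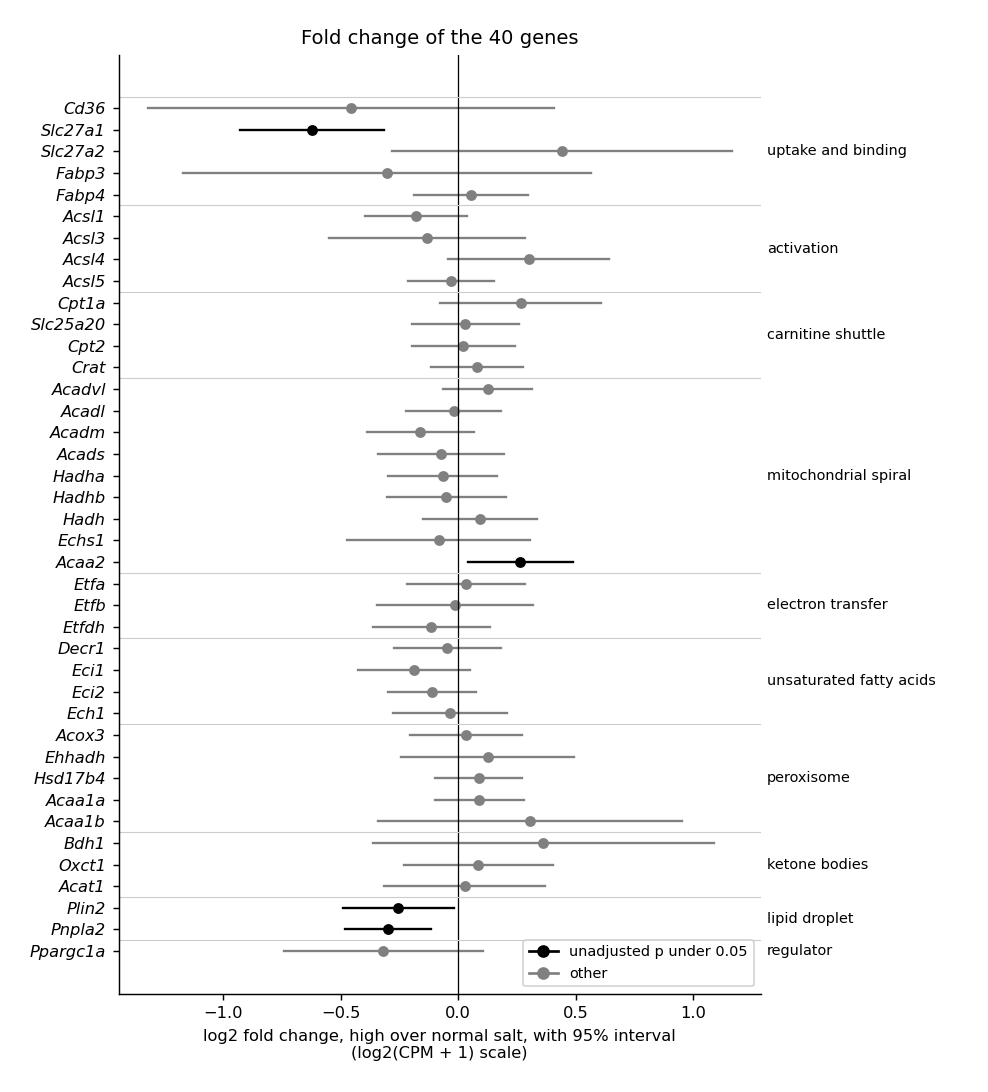
Log2 fold change of each of the 40 genes (high over normal salt, log2(CPM + 1) scale) with its 95% interval from the fit over all genes, n = 4 libraries per diet. Genes are grouped by role, and black points mark the 4 genes with an unadjusted p under 0.05, among which only Acaa2 lies to the right of 0.

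Of the 10 roles, uptake and binding had the widest range of fold changes. Slc27a1 (FATP1), which imports long-chain fatty acids and joins them to coenzyme A, lies on chromosome 8 at 71568882 to 71587302 on the plus strand (mm10, GENCODE M21). Its level was 157, 152, 159.8 and 233 CPM in the normal-salt libraries 1, 2, 3 and 6, and 115, 117, 97.2 and 120.0 CPM in the high-salt libraries 2, 3, 4 and 6. All high-salt libraries were below all normal-salt libraries, and normal-salt 6 stood above the other three of its diet. The means were 175 ± 38.5 and 112 ± 10.2 CPM (SD, n = 4 each), 36.1% lower under high salt. The log2 fold change was -0.62 (SE 0.14, 95% interval -0.93 to -0.32, limma, unadjusted p = 0.000976, adjusted p = 0.132). Without normal-salt 6 the diets still did not overlap, and the log2 fold change was -0.48 (limma, adjusted p = 0.171).

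The promoters of the 3 genes with lower means are shown because these genes had the smallest unadjusted p-values among the genes with lower means, and all are from RefSeq on GRCm38.p6. Each is the 250 bases before the RefSeq start, 5′ to 3′ on the gene's own strand, and capitals mark CCAAT or GGGCGG and their reverse complements. The windows are chr8:71568621-71568870 on the plus strand for Slc27a1, chr7:141454938-141455187 on the plus strand for Pnpla2 and chr4:86670060-86670309 on the minus strand for Plin2.
Slc27a1: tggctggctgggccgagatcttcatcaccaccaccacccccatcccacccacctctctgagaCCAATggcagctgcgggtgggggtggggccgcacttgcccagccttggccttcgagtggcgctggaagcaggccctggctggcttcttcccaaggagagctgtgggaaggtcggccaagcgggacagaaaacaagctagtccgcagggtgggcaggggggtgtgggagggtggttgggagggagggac
Pnpla2: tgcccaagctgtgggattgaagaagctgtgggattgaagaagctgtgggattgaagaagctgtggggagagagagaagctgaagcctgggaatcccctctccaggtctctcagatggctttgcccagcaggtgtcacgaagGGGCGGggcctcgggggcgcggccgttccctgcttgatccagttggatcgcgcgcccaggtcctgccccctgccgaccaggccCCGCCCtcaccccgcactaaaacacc
Plin2: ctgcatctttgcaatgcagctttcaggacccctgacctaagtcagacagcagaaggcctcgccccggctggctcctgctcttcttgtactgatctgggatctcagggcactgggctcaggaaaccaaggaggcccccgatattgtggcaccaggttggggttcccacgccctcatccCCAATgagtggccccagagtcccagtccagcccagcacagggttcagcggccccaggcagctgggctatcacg
Slc27a1 and Plin2 each held 1 CCAAT match and Pnpla2 held 2 GGGCGG matches. Searching both strands of the 250-base windows, CCAAT occurred in 16 of 38 windows of 34 of the 40 genes (42.1%) and in 33.8% of 32851 windows of all genes, and GGGCGG in 23 of 38 (60.5%) against 32.7%. AAGGTCA, the site bound by estrogen-related receptors, occurred in 2 of the 38 windows (5.26%), those of Acadm and Slc27a2, against 4.08% of all windows. The direct repeat of AGGTCA with 1 base between, a form of the PPAR response element, occurred in 0 of the 38 windows and in 11 of all windows (0.0335%). These are matches of letters in a short window and were not tested as binding sites. Crat, Acaa2, Acat1, Hsd17b4, Decr1 and Fabp4 had no window in the table used.

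Slc27a2 (FATP2), a transporter and activator of very long-chain fatty acids that is prominent in proximal tubule, was measured at 25.9, 23.4, 16.6 and 12.2 CPM under normal salt and 19.0, 15.4, 33.2 and 45.6 CPM under high salt. High-salt 4 and 6 were the highest of the 8 libraries and the other high-salt libraries lay within the normal-salt range. The log2 fold change was 0.44 (SE 0.33, limma, adjusted p = 0.701), and 0.18 without high-salt 6. Over the 8 libraries the correlation of Slc27a2 with the summed proximal tubule markers did not pass adjustment (Pearson r = 0.81, exact permutation p = 0.0167, adjusted p = 0.267, Spearman rho = 0.71, exact permutation p = 0.0576, adjusted p = 0.818). Without normal-salt 3 and high-salt 6, the libraries farthest from the median of the markers, r was 0.68. Of the 20 proximal tubule markers, 18 had a higher and 1 a lower mean under high salt, and their part in the Slc27a2 levels was not tested. In bulk libraries, fewer cells of a type and less RNA per cell cannot be told apart.

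The scavenger receptor Cd36, which helps long-chain fatty acids across the plasma membrane, was low and uneven. It was measured at 18.6, 5.38, 9.61 and 19.1 CPM under normal salt and 5.57, 6.17, 8.47 and 15.9 CPM under high salt, so that both diets covered nearly the same range. The log2 fold change was -0.46 (95% interval -1.32 to 0.41, limma, adjusted p = 0.750). Fabp3, a cytosolic fatty acid chaperone, was 21.9, 9.11, 13.1 and 10.8 CPM under normal salt and 5.27, 9.48, 8.61 and 25.3 CPM under high salt. Its highest values were in normal-salt 1 and high-salt 6, and the log2 fold change was -0.30 (limma, adjusted p = 0.836). Normal-salt 1 and high-salt 6 also had the highest summed thick ascending limb markers of their diets, 2963 and 3560 CPM.

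Across the 8 libraries, the correlation of Cd36 with the summed thick ascending limb markers did not pass adjustment (r = 0.86, exact permutation p = 0.012, adjusted p = 0.24, rho = 0.67, exact permutation p = 0.0831, adjusted p = 0.818). Without normal-salt 1 and high-salt 6, r was 0.76. Fabp3 gave r = 0.86 (exact permutation p = 0.0067, adjusted p = 0.24) and rho = 0.83 (exact permutation p = 0.0154, adjusted p = 0.615), and r = 0.57 without the same libraries. Acsl3 gave r = 0.75 (exact permutation p = 0.0384, adjusted p = 0.495) and rho = 0.62 (exact permutation p = 0.115, adjusted p = 0.818), and Decr1 r = 0.71 (exact permutation p = 0.0495, adjusted p = 0.495) and rho = 0.64 (exact permutation p = 0.0962, adjusted p = 0.818). Without the same libraries r was 0.30 for Acsl3 and 0.07 for Decr1, so these relations rest on normal-salt 1 and high-salt 6. None of 80 such relations, the 40 genes with 2 marker lists, passed Benjamini-Hochberg adjustment. Of the 14 thick ascending limb markers, 3 had a higher and 11 a lower mean under high salt, and their part in these levels was not tested. Fabp4, known best from adipocytes and some endothelia, was even, at 20.3, 18.7, 19.0 and 19.0 CPM under normal salt and 21.6, 16.9, 21.5 and 20.5 CPM under high salt (log2 fold change 0.05, limma, adjusted p = 0.906). Endothelial markers summed to 248.7 to 365 CPM under normal salt and 225 to 362 CPM under high salt, and their part in the Fabp4 level was not tested.

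**Figure D2:**
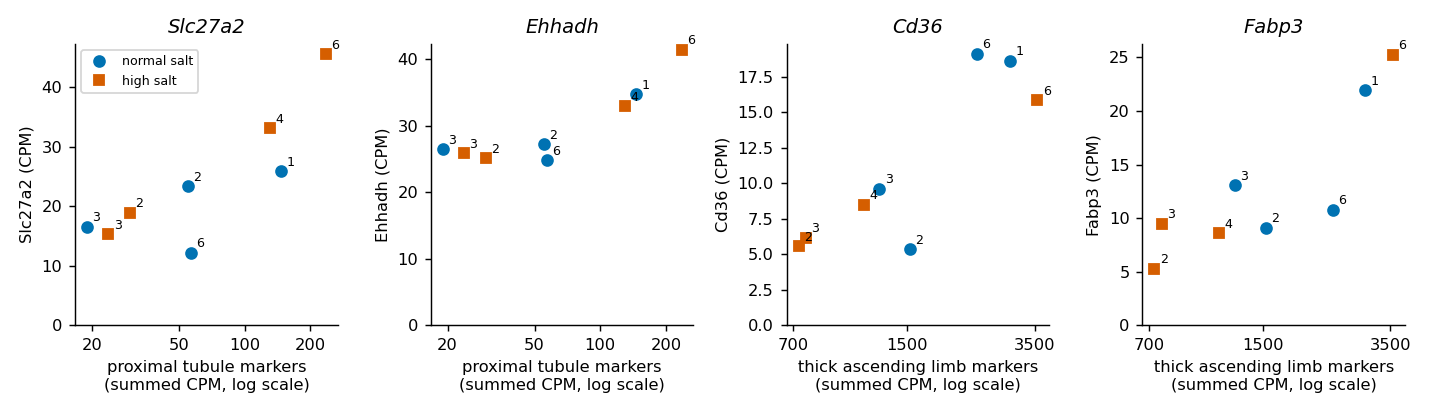
CPM of Slc27a2 and Ehhadh against the summed CPM of 20 proximal tubule markers, and of Cd36 and Fabp3 against 14 thick ascending limb markers (marker axes on a log scale), each point 1 library labelled by its column number. High-salt 6 (squares, high salt; circles, normal salt) has the highest marker sum in every panel, on the thick ascending limb axis the other high-salt libraries lie below all normal-salt libraries, and on the proximal tubule axis the diets are interleaved.

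Long-chain acyl-CoA synthetases, which activate fatty acids after uptake, did not pass the test. In the normal-salt libraries the mean of Acsl5 was 223 ± 17.3 CPM and that of Acsl1 181 ± 14.2 CPM (SD, n = 4). In the high-salt libraries they were 218 ± 7.87 and 160.2 ± 16.1 CPM (n = 4). Acsl4, which prefers arachidonic acid, averaged 74.6 ± 13.5 and 92.0 ± 16.7 CPM (n = 4 each), and Acsl3, known from lipid droplet formation, 41.7 ± 8.11 and 38.4 ± 10.5 CPM. The largest fold change of the 4 enzymes was that of Acsl4, at 0.30 on the log2 scale (limma, adjusted p = 0.547). The diets overlapped for each of the 4 enzymes.

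Cpt1a, the rate-limiting acyltransferase that commits fatty acids to mitochondria, was measured at 212, 289, 280.5 and 374 CPM under normal salt and 366, 307, 379 and 318 CPM under high salt. Normal-salt 6 lay among the high-salt libraries and the other normal-salt libraries lay below them. The log2 fold change was 0.27 (SE 0.15, 95% interval -0.08 to 0.61, limma, adjusted p = 0.60). Without normal-salt 6 it was 0.40 (limma, adjusted p = 0.379), and without normal-salt 1 it was 0.13 (limma, adjusted p = 0.678). Slc25a20, the carrier that exchanges acylcarnitine for carnitine across the inner membrane, was 41.0, 36.0, 35.7 and 46.5 CPM under normal salt and 41.6, 39.6, 41.1 and 39.3 CPM under high salt. Cpt2, which restores acyl-CoA inside the mitochondrion, was 48.8, 40.7, 43.1 and 41.6 CPM under normal salt and 41.9, 40.4, 49.7 and 45.2 CPM under high salt. Both were level between the diets, with log2 fold changes of 0.03 (95% interval -0.20 to 0.26) and 0.02 (95% interval -0.20 to 0.24). The correlation of Cpt2 with the summed proximal tubule markers did not pass adjustment (r = 0.72, exact permutation p = 0.0495, adjusted p = 0.495, rho = 0.60, exact permutation p = 0.132, adjusted p = 0.818), with r = 0.89 without normal-salt 3 and high-salt 6. Crat, which moves acetyl groups onto carnitine, averaged 89.6 ± 6.40 and 94.7 ± 7.05 CPM (SD, n = 4 each). By TPM, which scales for transcript length as well as library total, Cpt1a averaged 120.5 ± 26.3 over the 8 libraries, against 10.1 ± 2.69 for the muscle form Cpt1b and 3.69 ± 1.49 for the brain form Cpt1c.

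**Figure D3:**
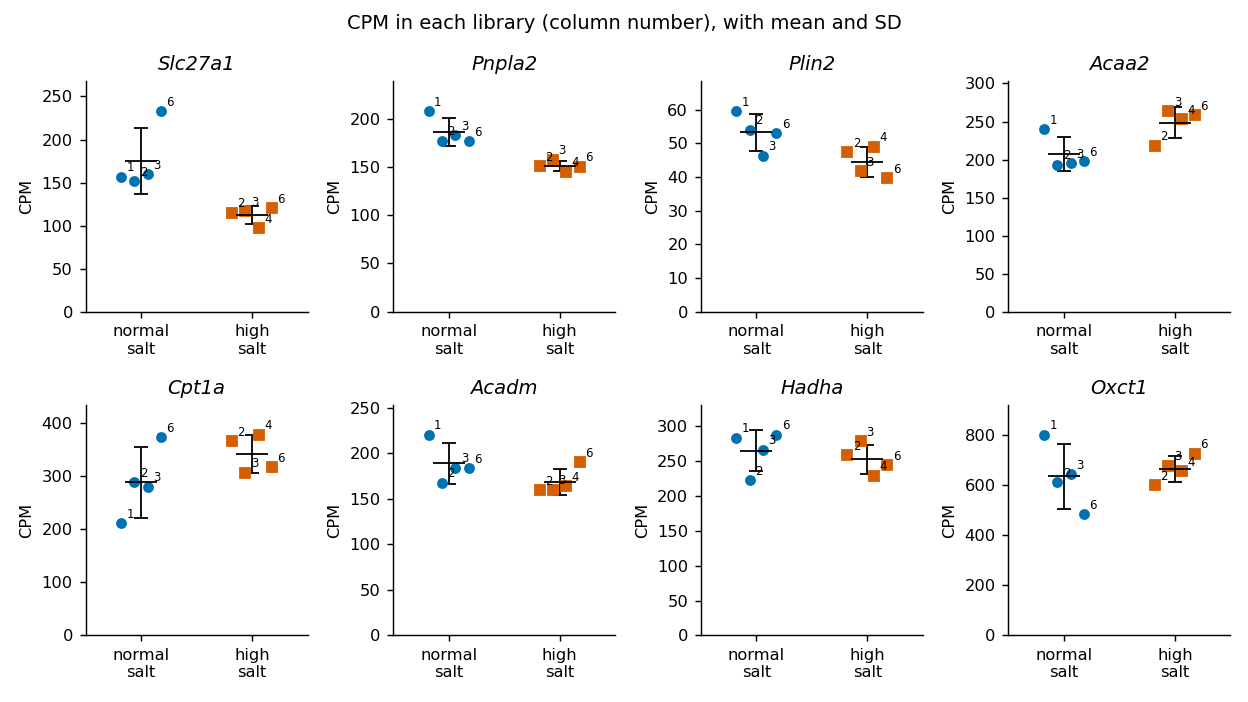
CPM in each library for 8 genes, with the mean (long bar) and SD (error bar) of each diet, n = 4, and points labelled by column number. The diets do not overlap for Slc27a1 (97.2 to 120.0 against 152 to 233 CPM) and Pnpla2 (145 to 157 against 177 to 208 CPM), and overlap for the other genes drawn.

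The 9 genes of the mitochondrial spiral itself had log2 fold changes between -0.16 and 0.27 with a median of -0.05, and for all 9 the 95% interval lay inside 1.5-fold. Acaa2, the mitochondrial thiolase that splits off acetyl-CoA (chromosome 18, 74779197 to 74806208, plus strand), was the highest of them under high salt relative to normal salt. It was measured at 240.1, 193, 195 and 198 CPM under normal salt and 218, 264, 253 and 258 CPM under high salt. Normal-salt 1 lay above high-salt 2 and below the other high-salt libraries, and the remaining normal-salt libraries lay below all of them. The means were 207 ± 22.3 and 248 ± 20.4 CPM (SD, n = 4 each), and the log2 fold change was 0.27 (SE 0.10, 95% interval 0.04 to 0.49, limma, unadjusted p = 0.0235, adjusted p = 0.385). In TPM the diets did not overlap, with 237, 227, 225 and 238 TPM under normal salt and 252, 300.4, 285 and 294 TPM under high salt (limma on log2(TPM + 1), log2 fold change 0.28, adjusted p = 0.289).

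The acyl-CoA dehydrogenases, which take the opening step for chains of different length, did not pass the test between diets. Acadvl (very long chains) was 209, 188, 198 and 192 CPM under normal salt and 190.3, 227, 216 and 225 CPM under high salt, so that high-salt 2 alone lay within the normal-salt range (log2 fold change 0.13, limma, adjusted p = 0.675). Exons of Acadvl share 1151 bases with exons of Dvl2 on the opposite strand. Acadl (long chains) was 184, 141, 163 and 168 CPM under normal salt and 159, 160.2, 167 and 158 CPM under high salt, with all high-salt libraries inside the normal-salt range (log2 fold change -0.02, limma, adjusted p = 0.965). Acadm (medium chains) was 220.1, 168, 184 and 184 CPM under normal salt and 159, 159.9, 164 and 190.1 CPM under high salt. Here 3 high-salt libraries were below all normal-salt libraries and high-salt 6 was not (log2 fold change -0.16, limma, adjusted p = 0.641). The correlation of Acadm with the thick ascending limb markers did not pass adjustment either (r = 0.83, exact permutation p = 0.0096, adjusted p = 0.24, rho = 0.90, exact permutation p = 0.00456, adjusted p = 0.365), with r = 0.78 without normal-salt 1 and high-salt 6. Acads (short chains) averaged 76.8 ± 14.1 and 72.2 ± 4.22 CPM (SD, n = 4 each).

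Hadha and Hadhb encode the alpha and beta chains of the mitochondrial trifunctional protein, which carries out the remaining steps for long chains. The genes lie head to head on chromosome 5, Hadha at 30118304 to 30155162 on the minus strand and Hadhb at 30155248 to 30184593 on the plus strand, with 85 bases between their starts. That interval, chr5:30155163-30155247 (mm10, plus strand, GENCODE M21 starts, sequence from RefSeq GRCm38.p6), is shown as the shared start region, with capitals for GGGCGG.
Hadha-Hadhb: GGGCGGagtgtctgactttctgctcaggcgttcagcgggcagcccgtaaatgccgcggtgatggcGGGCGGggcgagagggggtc
It held 2 GGGCGG matches. Hadha was 283, 223, 266 and 288 CPM under normal salt and 258, 279, 229 and 244 CPM under high salt, and Hadhb 289.8, 199, 229 and 219 CPM under normal salt and 212, 235, 215 and 235 CPM under high salt. The diets overlapped for both genes, and the log2 fold changes were -0.07 and -0.05 (limma, adjusted p = 0.876 and 0.923). Hadh, the dehydrogenase for shorter hydroxyacyl chains, averaged 73.5 ± 10.8 and 78.0 ± 4.77 CPM, and the hydratase Echs1 142 ± 38.2 and 131 ± 20.3 CPM (SD, n = 4 each). Normal-salt 1 was the highest library for Echs1, at 192 CPM.

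Etfa and Etfb, the chains of the electron transfer flavoprotein that collects electrons from the acyl-CoA dehydrogenases, were among the 5 most abundant of the 40 transcripts by TPM. Etfb averaged 449 ± 43.5 TPM over the 8 libraries and Etfa 315 ± 27.7 TPM. In CPM, Etfb was 232, 129, 162 and 179 under normal salt and 164, 174, 169 and 174 under high salt, and Etfa was 255, 184, 208 and 182 under normal salt and 198, 217, 201 and 225 under high salt. The high-salt libraries lay inside the normal-salt range for both genes, with log2 fold changes of -0.01 and 0.03 (95% intervals -0.34 to 0.32 and -0.22 to 0.28). Etfdh, which passes the electrons to ubiquinone, averaged 102 ± 14.2 and 93.8 ± 7.82 CPM (SD, n = 4 each).

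The 4 auxiliary enzymes for unsaturated fatty acids, Decr1, Eci1, Eci2 and Ech1, all had lower means under high salt, with log2 fold changes between -0.19 and -0.03, and none had an unadjusted p under 0.05. Eci1, a mitochondrial enoyl-CoA isomerase, had the largest of these differences, at 105 ± 16.5 CPM under normal salt and 91.7 ± 2.75 CPM under high salt (SD, n = 4 each, log2 fold change -0.19, limma, adjusted p = 0.599). In TPM, though not in CPM, the diets of Eci1 did not overlap, with 207.8, 169, 181 and 183 TPM under normal salt and 159, 167, 149 and 152 TPM under high salt (limma on log2(TPM + 1), log2 fold change -0.23, adjusted p = 0.427). The log2 fold changes of Decr1 and Ech1 changed sign without normal-salt 1, to 0.02 and 0.07.

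**Figure D4:**
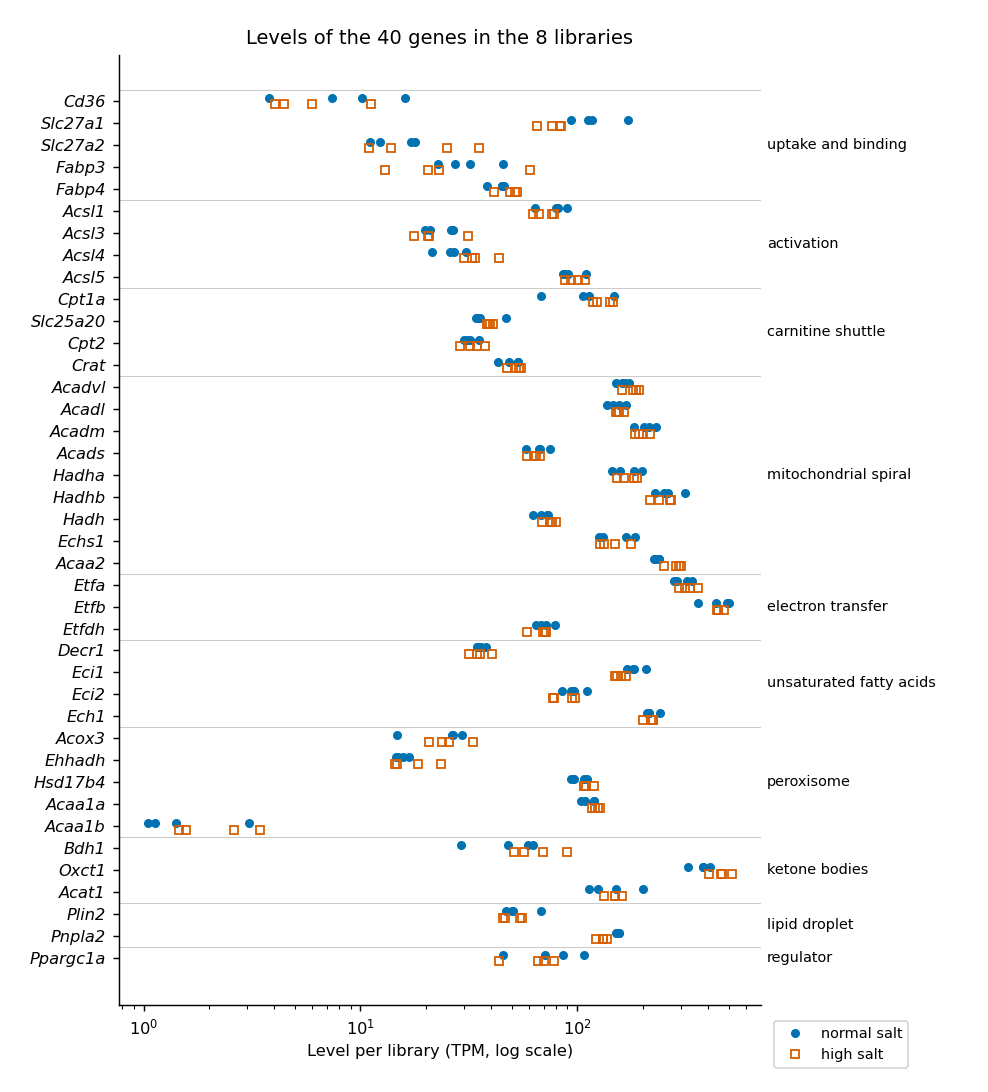
TPM of the 40 genes in each of the 8 libraries on a log axis, grouped by role, with filled circles for normal salt and open squares for high salt. Etfb and Oxct1 lie highest, at means of 449 and 416 TPM, and Cd36 and Acaa1b lowest, at 7.88 and 1.97 TPM.

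All 5 peroxisomal genes had higher means under high salt, with log2 fold changes of 0.03 to 0.31 and adjusted p-values of at least 0.774 (limma). High-salt 6 was the highest library in CPM for 4 of the 5 (80%), against 12.1% of all genes. Ehhadh, the peroxisomal bifunctional enzyme, was 34.8, 27.2, 26.4 and 24.8 CPM under normal salt and 25.1, 25.9, 32.9 and 41.5 CPM under high salt. The highest values were again in high-salt 6 and normal-salt 1, and the log2 fold change of 0.13 (limma, adjusted p = 0.842) became -0.01 without high-salt 6. The correlation of Ehhadh with the proximal tubule markers did not pass adjustment (r = 0.89, exact permutation p = 0.00355, adjusted p = 0.24, rho = 0.67, exact permutation p = 0.0831, adjusted p = 0.818), with r = 0.88 without normal-salt 3 and high-salt 6, and their part in its level was not tested. Acaa1a, the peroxisomal thiolase, was 125, 123, 128 and 105 CPM under normal salt and 125, 128, 126 and 132 CPM under high salt, with normal-salt 6 the lowest (log2 fold change 0.09, limma, adjusted p = 0.774). Its close copy Acaa1b was near the lower limit used, at 3.47, 1.13, 1.07 and 1.39 CPM under normal salt and 1.60, 2.70, 1.52 and 3.57 CPM under high salt (log2 fold change 0.31, limma, adjusted p = 0.776). Reads shared by Acaa1a and Acaa1b could have been assigned to either, so the Acaa1b values are uncertain. Hsd17b4, the D-bifunctional protein, averaged 164 ± 12.8 and 174 ± 6.34 CPM, and Acox3, an oxidase of branched chains, 44.6 ± 5.66 and 45.5 ± 2.32 CPM (SD, n = 4 each).

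The genes of ketone body use were expressed in every library. Oxct1, which charges acetoacetate with coenzyme A and is the rate-limiting enzyme of ketone use, was the second most abundant of the 40 transcripts at 416 ± 60.1 TPM over the 8 libraries. In CPM it was 799, 610.3, 641 and 483 under normal salt and 598, 676, 655 and 724 under high salt, with both the highest and the lowest library under normal salt (log2 fold change 0.09, 95% interval -0.23 to 0.40, limma, adjusted p = 0.884). In TPM it was 378, 407, 381 and 323 under normal salt and 405, 458, 466 and 513 under high salt, so that high-salt 2 alone lay within the normal-salt range (limma on log2(TPM + 1), log2 fold change 0.31, adjusted p = 0.361). The fold change thus depended on the unit, and in CPM it was -0.04 on the log2 scale without normal-salt 6. Bdh1, which interconverts hydroxybutyrate and acetoacetate, was 56.0, 34.5, 38.7 and 15.4 CPM under normal salt and 33.2, 47.7, 35.0 and 59.3 CPM under high salt. Normal-salt 6 was far below the rest, and the log2 fold change of 0.36 (SE 0.33, limma, adjusted p = 0.762) became 0.01 without it. Acat1, the mitochondrial acetoacetyl-CoA thiolase, was 318, 191, 236 and 193 CPM under normal salt and 207, 242, 230.2 and 259 CPM under high salt (log2 fold change 0.03, limma, adjusted p = 0.969).

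Both lipid droplet genes had lower means under high salt. Pnpla2 (ATGL), the lipase that opens triglyceride breakdown, lies on chromosome 7 at 141455198 to 141460743 on the plus strand. It was 208, 177, 183 and 177 CPM under normal salt and 151, 157, 145 and 150.4 CPM under high salt, with no overlap and little spread under high salt. The means were 186 ± 14.7 and 151 ± 5.07 CPM (SD, n = 4 each), 18.9% lower under high salt, with a log2 fold change of -0.30 (SE 0.08, 95% interval -0.48 to -0.12, limma, unadjusted p = 0.00426, adjusted p = 0.209). In TPM the diets of Pnpla2 did not overlap either, at 153, 151, 156.0 and 156.0 TPM under normal salt and 132, 137, 122 and 131 TPM under high salt (limma on log2(TPM + 1), log2 fold change -0.24, adjusted p = 0.331). Plin2, which coats the droplet (chromosome 4, 86648386 to 86670060, minus strand), was 59.5, 54.0, 46.3 and 53.0 CPM under normal salt and 47.4, 41.6, 49.0 and 39.6 CPM under high salt. High-salt 2 and 4 lay above normal-salt 3, and the log2 fold change was -0.26 (95% interval -0.49 to -0.02, limma, unadjusted p = 0.0371, adjusted p = 0.446). In TPM the Plin2 difference was smaller, at -0.08 on the log2 scale (limma on log2(TPM + 1), adjusted p = 0.890).

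Ppargc1a, the coactivator PGC-1 alpha that drives mitochondrial gene programmes, was 199.5, 335, 241 and 269 CPM under normal salt and 225, 143, 216 and 256 CPM under high salt. Normal-salt 2 was the highest and high-salt 3 the lowest library, and the remaining libraries of both diets were interleaved. The log2 fold change was -0.32 (SE 0.19, 95% interval -0.74 to 0.11, limma, adjusted p = 0.622), and -0.15 without high-salt 3.

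Libraries of the same diet differed in many of the genes at once, and which library was highest or lowest depended on the unit. Normal-salt 1 was the highest of the 8 libraries in CPM for 18 of the 40 genes, or 45%, against 25.3% of all genes, 28 of 30 nuclear genes of oxidative phosphorylation and 14 of 22 genes of the tricarboxylic acid cycle. In TPM it was the highest for 7 of the 40 genes, or 17.5%, against 11.6% of all genes, and for 19 of the 30 oxidative phosphorylation genes, and it was the lowest for 9 of the 40 (22.5%, against 44.6% of all genes). Normal-salt 6 was the lowest library in CPM for 11 of the 40 genes (27.5%, against 18.3% of all genes), 25 of the 30 oxidative phosphorylation genes and 16 of the 22 cycle genes. In TPM normal-salt 6 was the lowest for 7 of the 40 genes (17.5%, against 11.4%) and the highest for 10 (25%, against 21.7%). High-salt 6 was the highest for 9 of the 40 genes in CPM (22.5%, against 12.1% of all genes) and for 13 in TPM (32.5%, against 14.2%). The median SD within diets over the 40 genes was 0.16 on the log2 scale, against 0.20 over all genes. Normal-salt 1 and high-salt 6 had the highest proximal tubule and thick ascending limb marker sums of their diets, and the part of those cells in these counts was not tested.

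**Figure D5:**
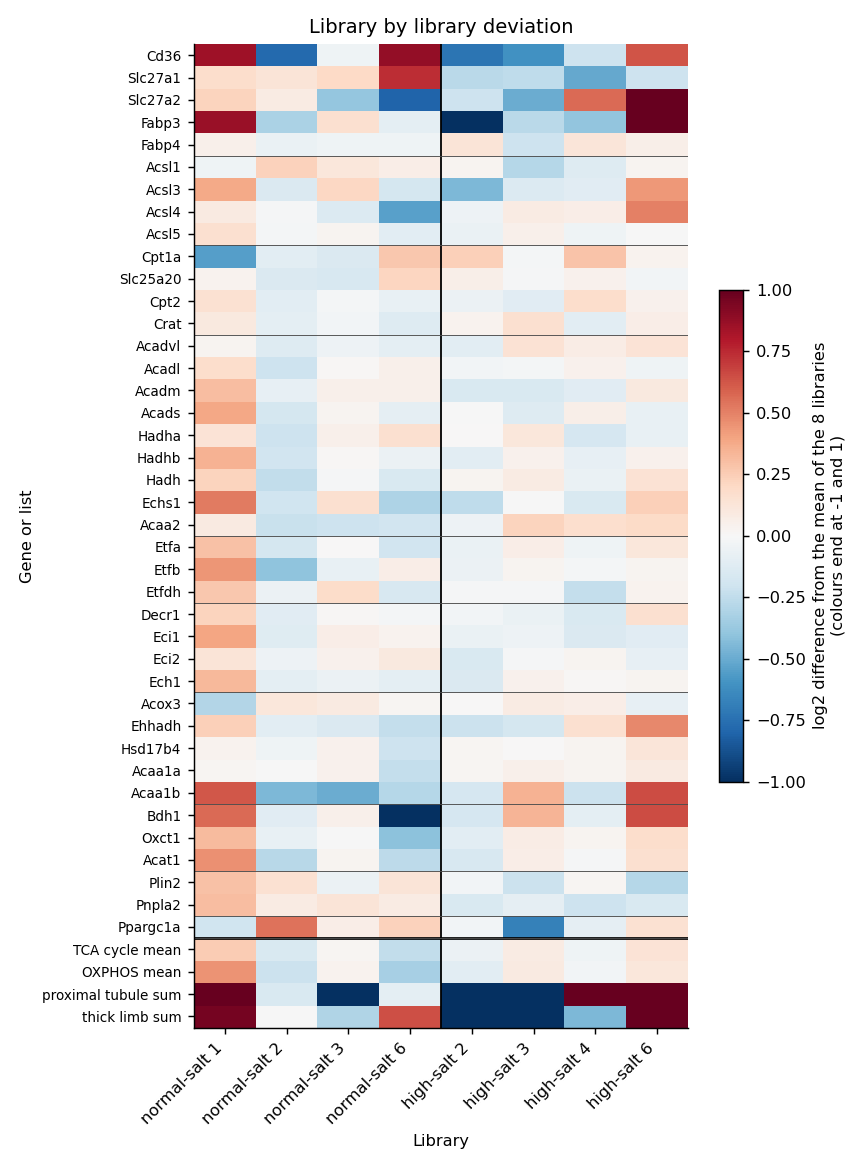
Difference of each gene from its mean over the 8 libraries (log2 scale, colours ending at -1 and 1), one row per gene in the order of roles and one column per library, with the means of the tricarboxylic acid cycle and oxidative phosphorylation lists and the summed proximal tubule and thick ascending limb markers below. Normal-salt 1 is red in most rows, being the highest of the 8 libraries for 18 of the 40 genes.

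Among other genes of these pathways, 0 passed the test in any of 8 lists examined beside the 40 (limma, adjusted p under 0.05). For comparison, 0.0821% of all genes passed, 10.3% had an unadjusted p under 0.05 and 6.40% had no overlap between diets. Of 22 further mitochondrial and carnitine genes tested, 4 (18.2%) had an unadjusted p under 0.05, 1 with a higher and 3 with a lower mean. For 3 of the 22 (13.6%) the diets did not overlap, and the median log2 fold change was -0.06. The carnitine importer Slc22a5 (OCTN2) was the clearest of these, at 43.1, 37.2, 37.5 and 47.8 CPM under normal salt and 32.2, 27.6, 27.7 and 33.1 CPM under high salt. Its diets did not overlap, with a log2 fold change of -0.44 (SE 0.11, limma, adjusted p = 0.174). Acad12, a little-studied acyl-CoA dehydrogenase, averaged 25.4 ± 0.568 and 19.9 ± 2.43 CPM (log2 fold change -0.35), and Cpt1c 4.87 ± 2.35 and 8.03 ± 1.92 CPM (log2 fold change 0.68). Cpt1b averaged 17.2 ± 2.73 and 18.3 ± 7.30 CPM (SD, n = 4 each).

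Among 16 further peroxisomal genes tested 0 had an unadjusted p under 0.05, against 10.3% of all genes. Their means were higher under high salt for 6 and lower for 10, and the median log2 fold change was -0.01. Of 6 further ketone genes tested, 1 (16.7%) had a higher mean with an unadjusted p under 0.05 and 0 a lower. That was the monocarboxylate transporter Slc16a1 (MCT1), at 3.01, 2.06, 2.70 and 2.26 CPM under normal salt and 5.79, 2.99, 8.05 and 5.06 CPM under high salt, where high-salt 3 alone lay within the normal-salt range (log2 fold change 0.83, SE 0.24, limma, adjusted p = 0.216).

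Of 15 further genes of uptake and activation tested, 0 were higher and 2 (13.3%) lower with an unadjusted p under 0.05. For 2 of the 15 (13.3%) the diets did not overlap, against 6.40% of all genes. Acss1, the mitochondrial acetyl-CoA synthetase that makes acetyl-CoA from acetate, was 261, 248, 206 and 271 CPM under normal salt and 175, 158, 151 and 191 CPM under high salt. All high-salt libraries were below all normal-salt libraries, 31.6% lower on average, with a log2 fold change of -0.54 (SE 0.11, limma, unadjusted p = 0.00054, adjusted p = 0.0943). The acyl-CoA thioesterase Acot9 averaged 55.3 ± 8.47 and 42.9 ± 4.73 CPM and did not overlap either (SD, n = 4 each, log2 fold change -0.35, limma, adjusted p = 0.342). Of 15 further lipid droplet genes tested, 1 (6.67%) was higher and 0 lower with an unadjusted p under 0.05, and 1 (6.67%) had no overlap. Lpin2, a phosphatidate phosphatase of triglyceride synthesis, was 36.3, 49.2, 57.0 and 52.9 CPM under normal salt and 65.4, 66.6, 82.0 and 74.1 CPM under high salt, without overlap (log2 fold change 0.56, SE 0.14, limma, adjusted p = 0.163). Plin5, the droplet protein of oxidative tissues, was under 1 CPM in every library and was not tested.

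Of 24 regulators tested, 3 (12.5%, against 10.3% of all genes) had an unadjusted p under 0.05, 1 higher and 2 lower. For 1 of the 24 (4.17%, against 6.40%) the diets did not overlap. Klf15, a zinc finger factor that is a known target of glucocorticoid signalling, was 63.8, 53.0, 52.6 and 40.6 CPM under normal salt and 20.5, 20.9, 21.5 and 48.6 CPM under high salt. High-salt 6 lay within the normal-salt range, and the other high-salt libraries were well below it. The log2 fold change was -0.97 (SE 0.25, limma, adjusted p = 0.182). Without high-salt 6 it was -1.27 and passed the test (limma, adjusted p = 0.0164). High-salt 6 was the outlying library of its diet for Klf15, and the gene passed only in fits that left this library out. Pdk2, a kinase that inhibits pyruvate dehydrogenase, was 219 ± 10.6 and 192 ± 4.68 CPM without overlap (SD, n = 4 each, log2 fold change -0.19, limma, adjusted p = 0.414). Pprc1, a relative of Ppargc1a, averaged 16.8 ± 3.51 and 26.1 ± 6.17 CPM (log2 fold change 0.60, limma, adjusted p = 0.298).

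The nuclear receptor Ppara, which switches on genes of fatty acid oxidation in fasting, was low, at 2.05, 5.36, 4.20 and 3.02 CPM under normal salt and 6.14, 4.43, 4.72 and 5.55 CPM under high salt (log2 fold change 0.46, limma, adjusted p = 0.524). Its well-known target Pdk4 was 17.5, 22.7, 23.6 and 51.6 CPM under normal salt and 44.3, 18.1, 23.0 and 20.2 CPM under high salt, with 1 high library in each diet (log2 fold change -0.09, limma, adjusted p = 0.953). Another target, the secreted lipase inhibitor Angptl4, was 0.386 to 2.32 CPM under normal salt and 0.492 to 1.35 CPM under high salt. The estrogen-related receptor Esrra averaged 171 ± 24.0 and 154 ± 20.3 CPM, and Acacb, whose product malonyl-CoA inhibits CPT1, 30.4 ± 7.14 and 26.8 ± 9.85 CPM (SD, n = 4 each). Downstream of the pathway, 0 of 22 tricarboxylic acid cycle genes and 0 of 30 nuclear oxidative phosphorylation genes had an unadjusted p under 0.05. The share over all genes was 10.3%. Median log2 fold changes were 0.07 for the cycle genes and 0.04 for the oxidative phosphorylation genes. For all 22 and for 29 of 30 of them the 95% interval lay inside 1.5-fold.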

How the data were processed

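Per the labels' protocols, OMCD were microdissected from enzyme-treated kidneys, RNA was extracted with a micro-scale column kit, and stranded mRNA libraries were prepared. The submitters' processing notes name FastQC, Trimmomatic and the mm10 build. Aligner, counting tool and strand setting are not given in the sources read here, and exons of 15 of the 40 genes overlap exons of a gene on the opposite strand in GENCODE M21. The authors deposited 2 tables, one of log2 values and one of TPM. The deposited log2 values have one floor of -5.29 in all libraries. Raised to the power of 2 and less that floor, they sum to the same total in every library, that of CPM, so they were read as log2(CPM + offset) and turned into CPM. The design had assumed linear CPM. Estimated counts were recovered from the lowest steps, and 85.0 to 86.8% of the nonzero values in the low-count range were whole within 0.02 counts. Because many were not whole, no count model was the main test.

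Column headings show the diet but not which titled sample a column is, so columns serve as unordered replicates. Each library is one mouse. The highest correlation between libraries over genes was 0.989 (Pearson, log2 scale), and none was counted as a duplicate. Genes with at least 1 CPM in at least 4 libraries were tested with limma 3.58.1 (R 4.3.3; lmFit, eBayes with a mean-variance trend) on log2(CPM + 1), with a pseudocount of 1. P-values are two-sided, Benjamini-Hochberg adjusted over 13401 genes, and called under 0.05. The pseudocount makes fold changes of low genes look smaller than they are. Intervals are at 95%. Correlations with marker sums used exact permutation over 8 libraries (SciPy 1.17.1). The test was checked on simulated data with 200 changed genes in 5 runs.

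Values per library are given for genes with an unadjusted p under 0.05 or without overlap, for a set list of pathway genes, and for the 5 with the highest TPM. Of other lists, genes called and at most 3 with the smallest unadjusted p under 0.05 are named, with a set list of regulators and enzymes, some of which are not reported here. Members and lists were chosen with earlier results of these data known. The alternatives were other pseudocounts, filters, scaling, TPM, voom, leaving out each library, a block on column numbers and marker covariates. Leaving out both normal-salt 1 and high-salt 6 was chosen after seeing the data.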

Additional observations from a re-analysis of the deposited data

Results flagged for a closer look

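In 114 groups of 4 libraries, one gene and one diet each, 8 had a library whose distance from its nearest neighbour exceeded Dixon's 95% critical share of the group's range. Chance flags about 1 in 20 groups. Normal-salt 1 was the outlying high library for 3 genes, with Acaa2 at 240.1 CPM against 193 to 198 CPM in the rest of its diet, Ech1 at 193.2 against 143 to 148 CPM and Acaa1b at 3.47 against 1.07 to 1.39 CPM. Normal-salt 6 was high for Slc27a1, at 233 CPM against 152 to 159.8 CPM and for Acacb, at 41.1 CPM against 26.3 to 27.2 CPM. High-salt 6 was high for Acadm, at 190.1 CPM against 159 to 164 CPM, and for Klf15, at 48.6 CPM against 20.5 to 21.5 CPM. High-salt 2 was low for Ech1, at 139 CPM against 155 to 158 CPM.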

How the results depend on the processing

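None of the 40 genes was called in the main setting or in any of 19 alternatives. Over these settings the log2 fold change of Slc27a1 stayed between -0.70 and -0.48 (limma, adjusted p 0.0815 to 0.426), that of Pnpla2 between -0.32 and -0.23 (0.131 to 0.507), that of Plin2 between -0.32 and -0.08 (0.316 to 0.890) and that of Acaa2 between 0.24 and 0.34 (0.105 to 0.734). The sign was the same in every setting for 20 of the 40 genes and changed for the other 20. Their median log2 fold change, -0.02, ranged from -0.066 to 0.063. The number of called genes over all genes, 11, became 0 without a filter, 43 without both normal-salt 1 and high-salt 6, 37 with a replicate block on the column numbers that both diets share (2, 3 and 6), 41 with the proximal tubule markers and 44 with the thick ascending limb markers as a covariate. Leaving out 1 library gave 0 to 50 called genes: 50 without normal-salt 1, 0 without normal-salt 3 or high-salt 4, 1 without normal-salt 6 or high-salt 3 and 5 without high-salt 2. Members higher with an unadjusted p under 0.05, 1 in the main setting, were 3 with TPM, 3 with the block and 4 with the thick ascending limb covariate, and 0 to 3 with 1 library left out (3 without normal-salt 1, 2 without normal-salt 6, 0 without normal-salt 2 or 3 or high-salt 3, 4 or 6). Members lower, 3 in the main setting, were 5 with the block. Over all genes the share with an unadjusted p under 0.05, in either direction, was 9.40% with TPM, 13.2% with the block and 8.16% with the thick ascending limb covariate, against 10.3% in the main setting. It was 6.90% (without high-salt 4) to 13.5% (without normal-salt 1) with 1 library left out. Members without overlap, 2 in the main setting, were 4 with TPM, 7 without both libraries and 7 with the block, and 2 to 5 with 1 library left out (5 without normal-salt 1, 4 without normal-salt 2, normal-salt 3 or high-salt 2). Over all genes the share without overlap was 6.40% in the main setting and 6.14% with TPM. With fewer libraries, absence of overlap is also more common over all genes (15.7% in the block and 18.5% without both). With 1 library left out that share was 8.18% (without high-salt 4) to 12.5% (without normal-salt 1). The cause of the other differences was not tested.

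Whether the column numbers pair the libraries cannot be told from so few shared numbers. Deviations from the diet means correlated at 0.21, 0.29 and 0.00 for the shared numbers 2, 3 and 6. Normal-salt 3 correlated most with high-salt 3, and high-salt 2 most with normal-salt 2. Normal-salt 2 correlated most with high-salt 4, at 0.28, and the highest value was that of normal-salt 1 with high-salt 6, at 0.30. The log2 fold changes whose sign changed follow, the largest of them among the 40 genes in the main setting being that of Cd36, -0.46. With TPM they were Acadl 0.048, Hadha 0.018, Etfb 0.023, Acsl5 0.069 and Cpt1b -0.029. Without both normal-salt 1 and high-salt 6 they were Acadl 0.047, Acads 0.056, Hadhb 0.035, Acox3 -0.027, Etfb 0.12, Ech1 0.054, Acsl5 0.015 and Cpt1b -0.13. With the replicate block they were Acadl 0.018, Acads 0.011, Hadha 0.013, Hadhb 0.077, Echs1 0.11, Acox3 -0.075, Etfb 0.14, Etfdh 0.016, Decr1 0.063, Ech1 0.057, Acsl5 0.028, Fabp3 0.013 and Esrra 0.017. With the proximal tubule covariate they were Cpt2 -0.0072, Acat1 -0.017 and Cpt1b -0.12. With the thick ascending limb covariate they were Acadl 0.0017, Hadhb 0.0094, Echs1 0.049, Acox3 -0.036, Etfb 0.067, Decr1 0.029, Ech1 0.027, Acsl3 0.082, Fabp3 0.23, Cd36 0.032 and Acacb 0.068. With 1 library left out in turn, the ranges that crossed 0 were Cpt2 -0.033 to 0.078, Slc25a20 -0.019 to 0.11, Acadl -0.091 to 0.037, Acads -0.14 to 0.044, Hadhb -0.12 to 0.057, Echs1 -0.20 to 0.075, Acox3 -0.059 to 0.077, Ehhadh -0.015 to 0.23, Etfa -0.025 to 0.14, Etfb -0.15 to 0.13, Decr1 -0.11 to 0.019, Ech1 -0.074 to 0.068, Acsl5 -0.071 to 0.018, Oxct1 -0.037 to 0.20, Acat1 -0.058 to 0.19, Pdk4 -0.36 to 0.22, Angptl4 -0.29 to 0.13 and Cpt1b -0.20 to 0.17. Klf15 passed the test without high-salt 6 (-1.27, limma, adjusted p = 0.0164) and without both libraries (-1.17, limma, adjusted p = 0.00931). Each of these fits left out high-salt 6, the outlying library of its diet for Klf15, and the gene passed in no other setting.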
